A study of Mus musculus with 6 samples.

Results

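Interferon-stimulated and antigen presentation genes were examined in NIH/3T3 cells, a mouse fibroblast line that grows without limit in culture, after knockdown of Aldoa, which encodes the glycolytic enzyme aldolase A. The list held 54 genes in 4 roles, namely signalling and transcription factors, sensors of foreign RNA with their regulators, antiviral effectors, and the processing and presentation of peptides on MHC class I. A gene was included where its symbol stood in the table of 18001 genes, which was true of 36 of the 54. The other 18 (Usp18, Ifih1, Zbp1, Ifit3b, Oas2, Oasl2, Mx1, Mx2, Rsad2, Bst2, Ifitm2, Gbp3, Gbp7, Cmpk2, Psmb8, Psmb10, B2m and H2-T23) were not analysed here, and nothing is read from that.

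Cells of one group (siAldoa) received pooled siRNAs that target Aldoa and those of the other (siCtrl) received a non-targeting pool, in both cases for 48 h. The measurement was sequencing of polyadenylated RNA in 3 replicates per group, which the study calls biological replicates. All 6 libraries came from cells that had received siRNA, and no library of untransfected cells was analysed here. A response to siRNA that both pools share therefore cannot be told apart from the resting level of these genes. The study set out to find out what loss of Aldoa does to the expression of ribosomal genes, and the genes described here are a further readout of the same libraries.

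Cells sense foreign RNA through cytosolic helicases (RIG-I, encoded by Ddx58, and MDA5, encoded by Ifih1), the endosomal receptor Tlr3 and the kinase PKR (Eif2ak2). Sensing leads to interferon secretion through the kinase TBK1 and the factors IRF3 and IRF7. Interferon acts through its receptors and a complex that includes STAT2 and IRF9 and binds the interferon-stimulated response element (ISRE), while interferon gamma acts on GAS elements. The genes so induced include the Ifit, Oas, Mx, Gbp and Isg families and, with help from the transactivator NLRC5, the peptide transporter TAP1 and TAP2, the loading factor tapasin (Tapbp), the immunoproteasome (Psmb8, Psmb9 and Psmb10) and the MHC class I chains. Double-stranded RNAs such as siRNAs are among the ligands known to reach Tlr3, PKR and RIG-I.

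Libraries held 3692341 to 3771129 reads, recovered as whole numbers from the deposited CPM values (reads scaled to an effective library size), and 3 reads corresponded to 0.786 to 0.822 CPM. The targeted gene was at 12.7% of its control level, with 522, 536 and 545 CPM in siCtrl replicates 1, 2 and 3 and 62.9, 69.2 and 72.0 CPM in siAldoa replicates 1, 2 and 3. Replicates 1 and 2 of a group lay closer to each other than to replicate 3, with a chi-square per degree of freedom of 1.11 to 1.12 against 1.97 to 3.03 for pairs that include replicate 3. The first 2 thus differed by little more than counting error. With their values averaged as 1 sample, 6 genes of the list were called higher in place of 7 and 1 lower. Ifitm3 was lost (limma adjusted p = 0.12). Over all 18001 genes that setting called 1579 higher and 1510 lower, in place of 1867 and 1809. Of the 14 fibroblast markers 12 had a row, and their summed level was 15452 to 16021 CPM in siCtrl and 12934 to 13646 CPM in siAldoa. These markers went both ways, with 4 positive and 8 negative log2 fold changes (-0.44 to 1.14). The summed level of 9 of 15 macrophage and other leukocyte markers was 20.2 to 28.5 CPM in siCtrl and 35.6 to 38.2 CPM in siAldoa. Most of that difference was Csf1r, without which the sums were 19.7 to 27.1 and 27.0 to 30.9 CPM. Among the 9, 5 log2 fold changes were positive and 4 negative (-0.66 to 2.18). Ptprc, the common leukocyte antigen, had 2 to 11 reads in a library. The sums of 4 of 6 epithelial markers were 18.6 to 19.7 CPM in siCtrl and 7.86 to 14.2 CPM in siAldoa, and those of 4 of 5 endothelial markers 9.86 to 11.1 and 5.50 to 9.18 CPM. No marker with a row was at 0 in all libraries. All libraries came from the NIH/3T3 line, and these marker levels were not read as the presence of other cell types. In bulk samples fewer cells of a type and less RNA per cell cannot be told apart. The part of these shifts in the results below was not tested.

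A few genes of the interferon and antigen presentation programme were higher in siAldoa, by modest amounts. Some classical antiviral genes, namely Ifit1, Ifit3, Oas1a and Ifi44, had 0 to 7 reads in each library. Other antiviral effectors had more, such as Ifit2 with 257 to 449 reads and Ifi27 with 49 to 86. Groups were compared with limma on log2(CPM + 1), with adjustment over all 18001 genes and a call at an adjusted p-value under 0.05. Of the 36 genes 7 were called higher in siAldoa, which is 19.4%, against 10.4% of all genes of the table. They were Ifit2, Tapbp, H2-D1, Tap2, Ifitm3, Eif2ak2 and Dtx3l. One gene, Samhd1, was called lower, which is 2.78%, against 10.0% of all genes. In either direction 20.4% of all genes were called, and 28 of the 36 passed the test in neither. The log2 fold changes of the 36 genes ran from -0.37 to 0.78 with a median of 0.18, whereas the median of all genes was -0.0023. A positive sign was found for 25 of them and a negative one for 11. All siAldoa libraries lay above all siCtrl libraries for 12 genes (33.3%, against 16.7% of all genes) and below them for 3 (8.33%, against 17.1%).

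The number called depended on the test and on expression level. With the recovered reads, the quasi-likelihood test of edgeR called 7 of the genes higher and 1 lower, where it called 10.7% and 10.4% of all genes. DESeq2 called 3 higher (Ifit2, Tapbp and H2-D1) and 1 lower (Samhd1), where it called 5.92% and 6.21% of all genes. All 8 genes called by limma were among the 24 with a mean of at least 5 CPM, and 7 higher of these 24 is 29.2%, against 14.6% of the 11529 genes at that level. None of the 12 genes with a mean under 5 CPM was called by limma or edgeR, and DESeq2 gave them no adjusted p-value. An unadjusted limma p-value under 0.05 was found for 2 of these 12, and for 735 of all 6472 genes at that level. At that level limma called 2.80% of all genes higher and 1.45% lower.

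**Figure D1:**
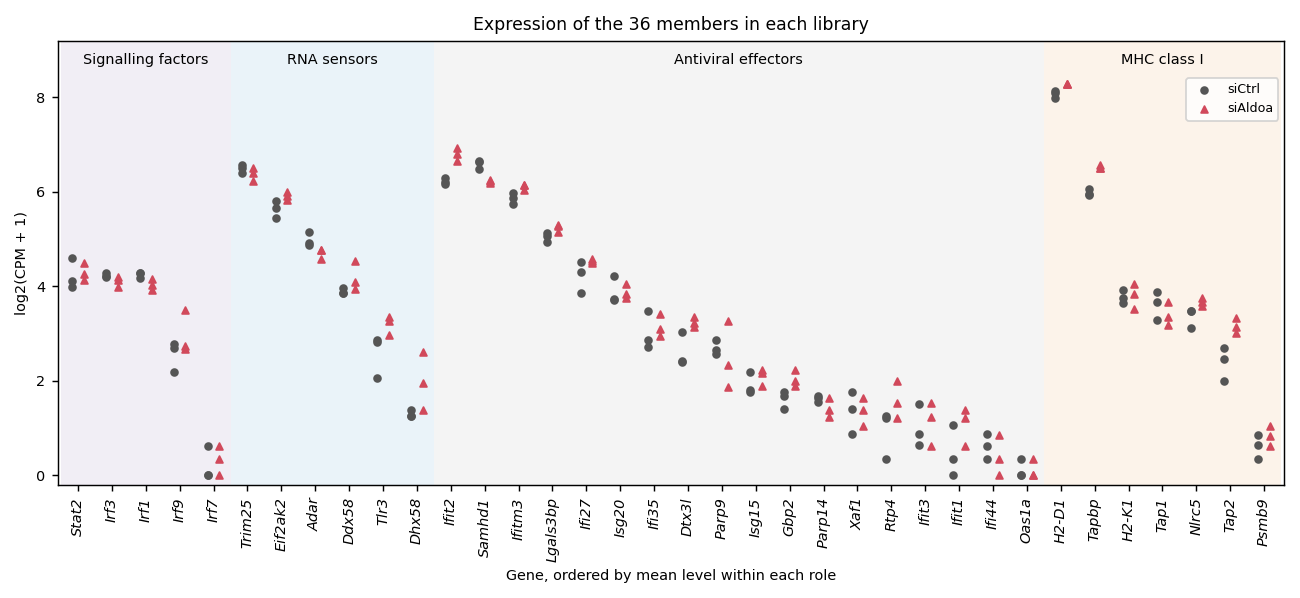
Expression of the 36 genes with a row. The vertical axis is log2(CPM + 1), each point is a library (grey circles siCtrl, red triangles siAldoa), and genes are ordered by mean level within their role. H2-D1 stands highest, at 251 to 310 CPM, and Irf7 and Oas1a have 0 to 2 reads in every library.

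By role, MHC class I genes held 3 of the 7 higher calls among 7 genes, or 42.9% against 10.4% of all genes (median log2 fold change 0.23). Antiviral effectors held 3 higher (16.7%) and 1 lower (5.56%, against 10.0% of all genes) among 18 genes, with a median of 0.16. The RNA sensors and their regulators held 1 higher among 6 (16.7%, median 0.29), and the signalling factors held none among 5 (median 0.06). With so few genes in a role, 1 call more or less moves these shares by several percentage points. Whether the roles differ from each other was not tested.

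**Figure D2:**
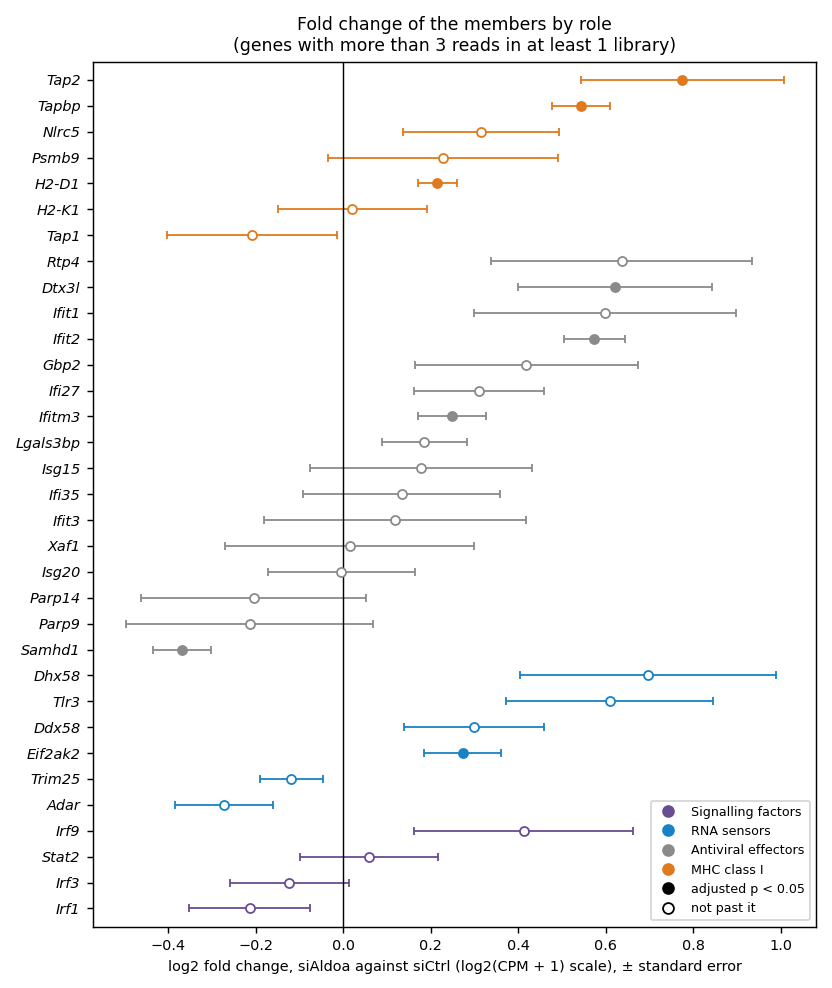
Log2 fold change of siAldoa against siCtrl on the log2(CPM + 1) scale, with its standard error, for the 33 genes that had more than 3 reads in at least 1 library. Filled points passed an adjusted p-value of 0.05 (limma), open points did not. The 7 filled points to the right of 0 belong to 3 roles, and Samhd1 is the filled point to the left.

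Promoter sequences from RefSeq (GRCm38.p6, from 250 bases before to 50 after a start) were found for 29 of the 36 genes, with 37 starts in all. The core letters of the ISRE (GAAA, any 2 bases, GAAA) were searched on both strands and found in 9 of the 37 promoters (24.3%). The share was 3.44% among all 32851 RefSeq promoters (27025 genes), which were not limited to the genes measured here. The GAS letters TTCNNNGAA, which read alike on both strands, were found in 9 as well (24.3%, against 8.30%). Of the 9 genes with ISRE letters (Ddx58, Eif2ak2, Gbp2, Ifit1, Ifit3, Ifitm3, Isg15, Oas1a and Stat2), 2 were called higher (22.2%), with a median log2 fold change of 0.25. Among the 20 genes with a promoter and no such letters 4 were called higher (20%) and 1 lower (5%), with a median of 0.07. The shares called higher were thus close, but the 2 sets were not matched for expression level. Under a mean of 5 CPM, where no gene of the list was called, lay Gbp2, Ifit1, Ifit3, Isg15 and Oas1a of the 9. Of the 20, Irf7, Ifi44, Psmb9 and Xaf1 lay there. Whether the letters go with a change was not tested. Over all genes 10.4% were called higher and 10.0% lower. The windows below are printed because they hold the letters of the 2 called genes and of the 3 classical antiviral genes with the most copies outside the Oas family. Capitals mark the ISRE letters, and each sequence reads 5′ to 3′ on the strand of the gene.
Ifitm3 (chr7:141010715-141010743, minus strand): gGAAAAGGAAActtctgaGAAACCGAAAc
Eif2ak2 (chr17:78882535-78882564, minus strand): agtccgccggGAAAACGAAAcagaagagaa
Isg15 (chr4:156200855-156200916, minus strand): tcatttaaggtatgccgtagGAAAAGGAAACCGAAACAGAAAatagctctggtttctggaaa
Ifit1 (chr19:34640765-34640833, plus strand): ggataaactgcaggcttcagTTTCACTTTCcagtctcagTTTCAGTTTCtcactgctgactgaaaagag
Ifit3 (chr19:34583353-34583436, plus strand): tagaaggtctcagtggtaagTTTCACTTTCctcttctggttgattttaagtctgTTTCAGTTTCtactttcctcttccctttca
In Isg15 3 overlapping matches begin 78, 72 and 66 bases before the start, and in Ifit1 and Ifit3 2 separate matches each lie upstream. In Ifitm3 and Eif2ak2 the letters lie just after the RefSeq start, and in Ifitm3 a GAS match overlaps the second of the 2 ISRE matches. Ifit2 and Samhd1, the called effectors with the lowest adjusted p-values, had no ISRE letters in this window and 1 GAS match each, given here with the GAS letters in capitals.
Ifit2 (chr19:34550444-34550481, plus strand): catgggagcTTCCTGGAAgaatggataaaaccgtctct
Samhd1 (chr2:157135303-157135346, minus strand): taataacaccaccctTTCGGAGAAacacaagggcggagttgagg
A match describes letters and is not a binding site by itself, and its absence says only that these letters are not in the window.

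Among the sensors, Eif2ak2 (chromosome 17, 78852564 to 78882573, minus strand, GRCm38), which encodes the kinase PKR that halts translation on binding double-stranded RNA, was called higher. It had 42.7, 54.7 and 49.5 CPM in siCtrl replicates 1 to 3 and 55.6, 59.3 and 62.6 CPM in siAldoa replicates 1 to 3. All siAldoa libraries were higher than all siCtrl libraries, although siCtrl replicate 2 came within 1 CPM of siAldoa replicate 1. Means were 49.0 ± 6.01 and 59.2 ± 3.50 CPM (SD, n = 3), a log2 fold change of 0.27 (standard error, SE, 0.088, adjusted p = 0.029 by limma). The call was lost with DESeq2 (adjusted p = 0.12) and without siCtrl replicate 1 (limma adjusted p = 0.19). It was also lost without siCtrl replicate 3 (0.090) or without siAldoa replicate 1 (0.056), 2 (0.11) or 3 (0.17).

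The other sensors did not pass the test. Ddx58, the RIG-I helicase, had 14.5, 13.4 and 13.5 CPM in siCtrl and 14.3, 22.2 and 16.0 CPM in siAldoa, so that siAldoa replicate 2 stood above the rest and the groups overlapped (log2 fold change 0.30, limma adjusted p = 0.22). Tlr3, the endosomal receptor for double-stranded RNA, had 6.03, 6.29 and 3.17 CPM in siCtrl and 9.18, 8.55 and 6.81 CPM in siAldoa. Its groups did not overlap (log2 fold change 0.61, limma adjusted p = 0.075), and with genes at low level left out of the test the adjusted p was 0.038. It lay between 0.052 and 0.34 in the other alternatives, and was highest without siCtrl replicate 3, where the log2 fold change was 0.35. Dhx58, which encodes the regulatory helicase LGP2, had 1.37, 1.37 and 1.59 CPM in siCtrl and 5.13, 1.60 and 2.88 CPM in siAldoa. That is 5, 5 and 6 reads against 19, 6 and 11 reads, and its log2 fold change was 0.70 (limma adjusted p = 0.10). Without siAldoa replicate 2 it was 1.00 (limma adjusted p = 0.034), and without siAldoa replicate 1 it was 0.38 (0.44).

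Trim25 and Adar, the remaining regulators of RNA sensing, had negative fold changes. Trim25, the ubiquitin ligase that activates RIG-I, had 83.5, 94.1 and 90.2 CPM in siCtrl and 89.6, 74.3 and 83.0 CPM in siAldoa, with overlapping groups (log2 fold change -0.12, limma adjusted p = 0.28). Adar, which edits double-stranded RNA and so limits its sensing, had 34.2, 29.0 and 28.3 CPM in siCtrl and 26.2, 26.2 and 22.8 CPM in siAldoa. All siAldoa libraries were below all siCtrl libraries, and the log2 fold change was -0.27 (SE 0.11, adjusted p = 0.095 by limma). For a gene whose groups do not overlap, the exact two-sided permutation test of 3 against 3 libraries gives p = 0.10, the smallest it can give.

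The signalling and transcription factors gave no call, and none had an unadjusted limma p-value under 0.05. Stat2, a subunit of the complex that binds the ISRE, had 23.3, 14.8 and 16.4 CPM in siCtrl and 16.5, 21.6 and 18.1 CPM in siAldoa, with an overlap over most of the range and a log2 fold change of 0.06 (limma adjusted p = 0.85). Irf9, its DNA-binding partner, had 3.56, 5.47 and 5.82 CPM in siCtrl and 5.67, 5.35 and 10.2 CPM in siAldoa. Only siAldoa replicate 3 stood apart (log2 fold change 0.41, limma adjusted p = 0.29). Irf7, the factor that amplifies interferon production and is itself induced by interferon, had 0, 0 and 2 reads in siCtrl and 2, 1 and 0 reads in siAldoa, too few for a fold change. Irf3, the factor activated by RNA sensing, and Irf1, which acts downstream of interferon gamma, had log2 fold changes of -0.12 and -0.21 (limma adjusted p = 0.60 and 0.32). The siAldoa libraries were all below the siCtrl libraries for Irf1.

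Ifit2 (chromosome 19, 34550694 to 34576419, plus strand), whose protein binds RNA and restricts viral translation, was the effector with the firmest change. It had 70.4, 76.9 and 72.8 CPM in siCtrl and 111, 120 and 99.0 CPM in siAldoa, so every siAldoa library stood well above all siCtrl libraries. Mean expression was 73.3 ± 3.28 and 110 ± 10.5 CPM (SD, n = 3), or 150% of the control, with a log2 fold change of 0.57 (SE 0.070, adjusted p = 1.6e-06 by limma). The call held in each setting tried, with log2 fold changes of 0.51 to 0.65.

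Its neighbours on chromosome 19 were at a few reads. Ifit1, the family member that binds uncapped and foreign RNA ends, had 1, 4 and 0 reads in siCtrl and 2, 6 and 5 reads in siAldoa, with overlapping groups (limma adjusted p = 0.18). Ifit3, its partner, had 3, 2 and 7 reads in siCtrl and 7, 5 and 2 in siAldoa. On the scale of CPM per kilobase of exon, Ifit2 was at 18.7 in siCtrl and 28.0 in siAldoa, Ifit1 at 0.172 and 0.433, and Ifit3 at 0.615 and 0.716. The 3 genes thus stood far apart in level in both groups, and Ifit1 and Ifit3 are those with 2 ISRE matches each in the windows above.

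Some other classical antiviral genes were also low. Isg15, the ubiquitin-like modifier that interferon induces strongly, had 2.47, 3.56 and 2.38 CPM in siCtrl and 3.51, 2.67 and 3.67 CPM in siAldoa, which is 9, 13 and 9 reads against 13, 10 and 14 reads. The groups overlapped and the log2 fold change was 0.18 (SE 0.25, adjusted p = 0.70 by limma). Oas1a, which makes the activator of RNase L, had 0, 1 and 0 reads in siCtrl and 1, 0 and 0 in siAldoa, and Ifi44 had 1, 3 and 2 reads against 1, 3 and 0. For these genes a change was not detectable at this depth unless it had been large. Gbp2, a guanylate-binding protein, had 6, 8 and 9 reads in siCtrl and 11, 10 and 14 in siAldoa, without overlap (log2 fold change 0.42, limma adjusted p = 0.29), and Rtp4 had 1, 5 and 5 reads against 11, 7 and 5 (0.64, limma adjusted p = 0.15).

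Ifitm3 (chromosome 7, 141009586 to 141010770, minus strand), a membrane protein that blocks viral entry, was at 57.5, 52.5 and 61.9 CPM in siCtrl and 70.2, 70.0 and 64.4 CPM in siAldoa. The groups did not overlap, and siCtrl replicate 3 and siAldoa replicate 3 were the closest pair. The means of 57.3 ± 4.70 and 68.2 ± 3.28 CPM (SD, n = 3) gave a log2 fold change of 0.25 (SE 0.077, adjusted p = 0.023 by limma). This call was lost with DESeq2 (adjusted p = 0.12), without siCtrl replicate 1 (limma adjusted p = 0.069) or 2 (0.13), and without siAldoa replicate 1 or 2 (0.11 each). Per kilobase of exon Ifitm3 was the most abundant effector, at 84.5 CPM per kilobase in siCtrl and 101 in siAldoa.

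Dtx3l (chromosome 16, 35926511 to 35939151, minus strand), a ubiquitin ligase that acts together with PARP9, had 7.12, 4.38 and 4.23 CPM in siCtrl and 7.83, 8.29 and 9.16 CPM in siAldoa. The siCtrl replicate 1 library reached almost the level of the lowest siAldoa library. The log2 fold change of 0.62 (SE 0.22) had a limma adjusted p of 0.04998, which is at the threshold. It was 0.17 with DESeq2 and 0.10 to 0.18 without siCtrl replicate 2 or 3 or without any 1 of the siAldoa libraries. Parp9, which lies head to head with Dtx3l and shares 458 exonic bases with it on the opposite strand, had 4.93, 6.29 and 5.29 CPM in siCtrl and 4.05, 8.55 and 2.62 CPM in siAldoa, with a log2 fold change of -0.21 (limma adjusted p = 0.67). The sources used here do not say whether reads were counted by strand, so reads of the shared bases cannot be told apart.

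Samhd1 (chromosome 2, 157097533 to 157135265, minus strand), which degrades deoxynucleotides and so limits reverse transcription, was the only gene of the list called lower. It had 99.4, 88.1 and 98.4 CPM in siCtrl and 73.9, 71.9 and 74.6 CPM in siAldoa, with the siAldoa libraries close together and all below siCtrl. Expression fell from 95.3 ± 6.28 to 73.5 ± 1.42 CPM (SD, n = 3), to 77.1% of the control, with a log2 fold change of -0.37 (SE 0.066, adjusted p = 0.00021 by limma). The call held without any 1 library, and was lost when replicate 3 was left out of both groups (limma adjusted p = 0.074). Samhd1 shares stretches of at most 231 bases, at 90% identity or more, with 44 other genes, out of 9150 exonic bases.

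The remaining effectors did not pass the test. Lgals3bp, a secreted glycoprotein, was at 29.9, 34.2 and 32.5 CPM in siCtrl and 34.3, 38.2 and 37.7 CPM in siAldoa (log2 fold change 0.19, limma adjusted p = 0.20), with siAldoa replicate 1 only just above siCtrl replicate 2. Ifi27 had a log2 fold change of 0.31 (0.16), with siCtrl replicate 2 as its lowest library at 49 reads and the other libraries at 71 to 86 reads. Ifi35, Isg20, Parp14 and Xaf1 had log2 fold changes of 0.13, -0.00, -0.20 and 0.01, and their groups overlapped.

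**Figure D3:**
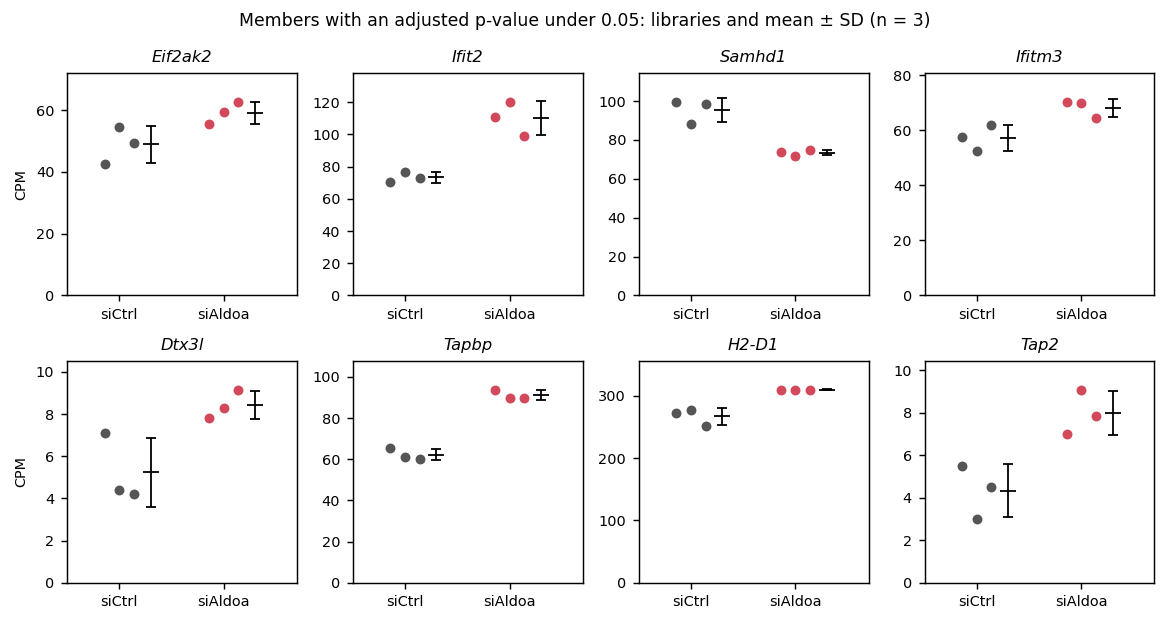
CPM of the 8 genes with an adjusted p-value under 0.05. Points are the libraries, in the order of replicates 1 to 3, and the bar beside each group is the mean ± SD (n = 3), on axes that start at 0. In each panel all siAldoa libraries lie on 1 side of the siCtrl libraries, narrowly for Eif2ak2 and Dtx3l and with a wide gap for Ifit2 and Tapbp.

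In the MHC class I group 2 genes of peptide loading and 1 heavy chain were called higher. Tapbp (chromosome 17, 33915899 to 33929292, plus strand) encodes tapasin, which holds class I molecules at the peptide transporter. It had 65.5, 61.3 and 60.1 CPM in siCtrl and 93.9, 89.8 and 89.8 CPM in siAldoa. Replicates were tight in both groups and the gap between the groups was several times their spread. Means of 62.3 ± 2.84 and 91.2 ± 2.37 CPM (SD, n = 3) correspond to 146% of the control and a log2 fold change of 0.54 (SE 0.066, adjusted p = 1.6e-06 by limma). Like Ifit2, Tapbp was called in each setting tried, with log2 fold changes of 0.52 to 0.58.

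Tap2 (chromosome 17, 34203527 to 34216321, plus strand), a subunit of the transporter that carries peptides into the endoplasmic reticulum, had the largest fold change of the list on the log2(CPM + 1) scale. As a ratio of mean CPM it was at 185% of the control, below Ifit1 (252%), Dhx58 (222%) and Rtp4 (207%), which have fewer reads. It had 5.48, 3.01 and 4.50 CPM in siCtrl and 7.02, 9.09 and 7.86 CPM in siAldoa, or 20, 11 and 17 reads against 26, 34 and 30 reads. The groups did not overlap, and the log2 fold change was 0.78 (SE 0.23, adjusted p = 0.018 by limma). DESeq2 did not call it (adjusted p = 0.081), nor did limma without siCtrl replicate 2 (0.11) or 3 (0.053) or without siAldoa replicate 2 (0.11) or 3 (0.072).

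Tap1, which encodes the other subunit of the same transporter, was not called. Its values were 13.7, 8.75 and 11.6 CPM in siCtrl and 9.18, 8.02 and 11.8 CPM in siAldoa, with overlapping groups and a log2 fold change of -0.21 (SE 0.20, adjusted p = 0.52 by limma). The difference between the fold changes of Tap1 and Tap2 was not tested. Psmb9, an immunoproteasome subunit that lies next to Tap1 and shares 212 exonic bases with it on the opposite strand, had 1, 2 and 3 reads in siCtrl and 2, 4 and 3 reads in siAldoa.

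H2-D1 (chromosome 17, 35262730 to 35267499, plus strand), a classical class I heavy chain, was the most abundant gene of the list. It had 272, 278 and 251 CPM in siCtrl and 310, 310 and 309 CPM in siAldoa. The siAldoa libraries agree within 2 CPM and lie above all siCtrl libraries, of which replicate 3 is the lowest. Its log2 fold change was 0.22 (SE 0.044, adjusted p = 0.00091 by limma), or 116% of the control. The call held without any 1 library, and was lost without replicate 1 of both groups (limma adjusted p = 0.070), without replicate 3 of both (0.057) and without the mean-variance trend (0.12).

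H2-K1, the second classical heavy chain measured, had 11.5, 14.2 and 12.4 CPM in siCtrl and 13.2, 10.4 and 15.4 CPM in siAldoa, and neither group was higher throughout (log2 fold change 0.02, SE 0.17, limma adjusted p = 0.96). Per kilobase of exon it was at 4.33 CPM in siCtrl and 4.44 in siAldoa, against 104 and 120 for H2-D1. Transcripts of the 2 genes are 90.4% identical over 1403 bases, and each is at least 90% identical to 13 genes in all over at least 200 bases. Class I genes also differ between mouse strains, and the reads of this line, which comes from Swiss mice, were aligned to the C57BL/6J genome. How reads were divided among these copies is not given in the sources used here, so the levels of both genes are uncertain.

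Nlrc5, the transactivator of class I genes, had 7.67, 10.1 and 10.1 CPM in siCtrl and 11.6, 12.6 and 11.0 CPM in siAldoa. All siAldoa libraries were above siCtrl, and the log2 fold change was 0.31 (SE 0.18, adjusted p = 0.24 by limma). The 3 constitutive catalytic proteasome subunits, which the immunoproteasome subunits replace, had negative fold changes. Of these 1 passed the test (33.3%, against 10.0% of all genes called lower). Psmb9, the only immunoproteasome subunit with a row, had 1 to 4 reads, and a replacement of subunits was not tested. Psmb6 had 123, 112 and 121 CPM in siCtrl and 98.2, 94.3 and 97.7 CPM in siAldoa, all siAldoa libraries being lower, with a log2 fold change of -0.29 (limma adjusted p = 0.00075). Psmb5 and Psmb7 had log2 fold changes of -0.11 and -0.14 (limma adjusted p = 0.41 and 0.21), and their siAldoa libraries were also all below siCtrl. Over all genes 17.1% had this order.

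**Figure D4:**
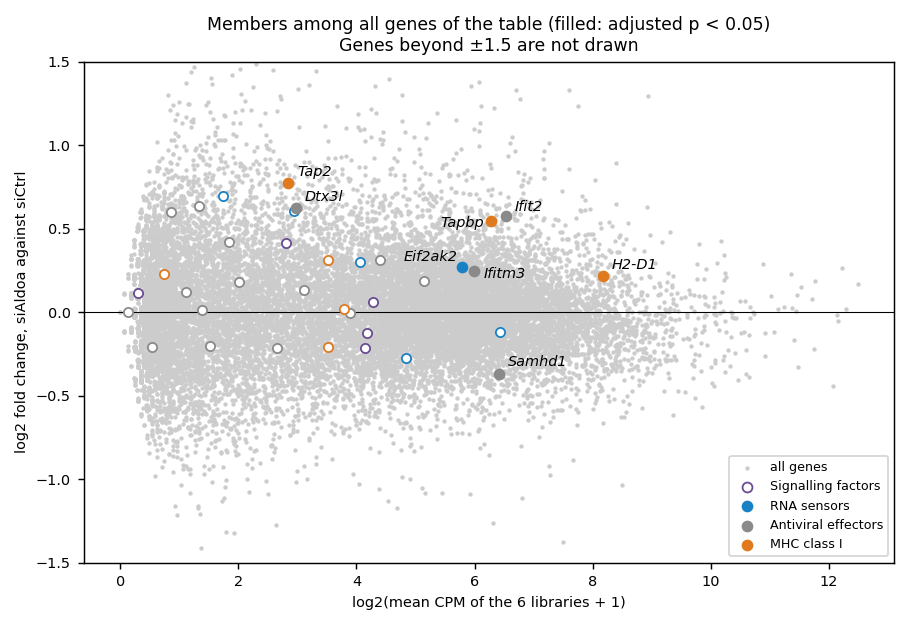
Log2 fold change of siAldoa against siCtrl over log2(mean CPM of the 6 libraries + 1) for all genes of the table (grey) and the 36 genes (coloured by role, filled where the limma adjusted p-value was under 0.05). The called genes lie at 6.16 CPM and above, and all genes of the list below that level are open points.

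Genes around the pathway were counted from further lists, chosen like the 54 with earlier results of these data known. Of 21 interferon genes 1 had a row (Ifnz, 0 to 3 reads in a library), and it was not called. Of 17 receptor, JAK-STAT and feedback genes 3 were called higher (17.6%, against 10.4% of all genes) and 0 lower (median log2 fold change 0.08). They were Irf2bp2, a cofactor of the repressor IRF2 (0.72), the transcription factor gene Stat3 (0.69) and the receptor-bound kinase gene Jak1 (0.14). With DESeq2, 2 of the 17 were called higher and 0 lower, where it called 5.92% and 6.21% of all genes. Stat3 had 72.3, 72.8 and 70.6 CPM in siCtrl and 117, 110 and 123 CPM in siAldoa (limma adjusted p = 1.7e-08), a gap far wider than the replicate spread.

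Among 17 adaptors, kinases and DNA sensors 5 were called higher (29.4%, against 10.4% of all genes) and 1 lower (5.88%, against 10.0%), with a median of 0.24. Higher were Tmem173, which encodes the adaptor STING (0.66), the kinase genes Ikbke (0.62) and Tbk1 (0.30), their scaffold Tank (0.24) and the ubiquitin ligase gene Traf6 (0.37). Mb21d1, which encodes the DNA sensor cGAS upstream of STING, was lower (-0.37). By DESeq2 2 of the 17 were called higher and 0 lower (5.92% and 6.21% of all genes), so the Mb21d1 call was not kept. Tbk1 had 96.4, 88.4 and 91.0 CPM in siCtrl and 119, 116 and 105 CPM in siAldoa (limma adjusted p = 0.0012). Mavs, the adaptor of the RNA helicases, had 204 to 227 reads in siCtrl and 211 to 225 in siAldoa, the siAldoa range lying within that of siCtrl.

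Of 38 further interferon-stimulated genes 5 were called higher and 2 lower, with a median of 0.06. The share of higher calls, 13.2%, was close to the 10.4% of all genes. Lower calls made up 5.26%, against 10.0% of all genes. Casp4, which encodes the sensor of cytosolic lipopolysaccharide, had the largest change, with 6.30, 6.29 and 5.29 CPM in siCtrl and 12.1, 12.8 and 17.8 CPM in siAldoa (log2 fold change 1.12, limma adjusted p = 0.00014). The other higher genes were Parp10 (0.74), Tor3a (0.42), Znfx1 (0.39) and Samd9l (0.37). Pnpt1, a mitochondrial exoribonuclease, was among the lower genes (-0.26). Of the 38, DESeq2 called 3 higher and 0 lower (5.92% and 6.21% of all genes), so the Pnpt1 call was not kept.

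Further antigen presentation genes held more lower than higher calls, with 2 higher and 5 lower among 20 (median -0.03). Those are 10.0% higher, against 10.4% of all genes, and 25.0% lower, against 10.0%. Mr1, a class I-like molecule (0.49), and Erap1, the peptidase that trims peptides in the endoplasmic reticulum (0.47), were higher. The chaperone genes of class I folding Calr (-0.26) and Pdia3 (-0.16), the proteasome maturation factor Pomp (-0.35) and the proteasome activator Psme3 (-0.16) were lower, as was the chaperone gene Canx. Calr had 1314, 1293 and 1312 CPM in siCtrl and 1083, 1079 and 1106 CPM in siAldoa (limma adjusted p = 4.3e-07). Under DESeq2 the calls among the 20 were 1 higher and 4 lower, against 5.92% and 6.21% of all genes.

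With sensing of the siRNAs in mind, genes that load or process small RNAs and targets of NF-kB were counted as well. Of 11 genes of siRNA loading and processing 4 were called higher (36.4%) and 3 lower (27.3%), against 10.4% and 10.0% of all genes (median -0.01), among them the Argonaute genes Ago3 (0.38) and Ago2 (0.24), the small RNA nuclease gene Dicer1 (-0.25), its nuclear counterpart's partner Dgcr8 (-0.36) and Tsn, a subunit of the complex that removes passenger strands (-0.41). Ago2, the nuclease of RNA interference, had 189, 186 and 176 CPM in siCtrl and 222, 217 and 212 CPM in siAldoa (limma adjusted p = 0.00059). DESeq2 called 2 of the 11 higher and 3 lower, against 5.92% and 6.21% of all genes. Of 13 NF-kB targets and cytokines 5 were called higher (38.5%, against 10.4% of all genes) and none lower (median 0.34). Higher were the chemokine genes Cxcl5 (1.33), Ccl7 (1.02) and Cxcl1 (0.93), the inhibitor gene Nfkbia (0.51) and the subunit gene Nfkb2 (0.26). Among these 13 genes DESeq2 called 3 higher and 0 lower. Cxcl5 had 105, 108 and 114 CPM in siCtrl and 267, 293 and 268 CPM in siAldoa (limma adjusted p = 1.6e-14), with all siAldoa libraries far above siCtrl.

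**Figure D5:**
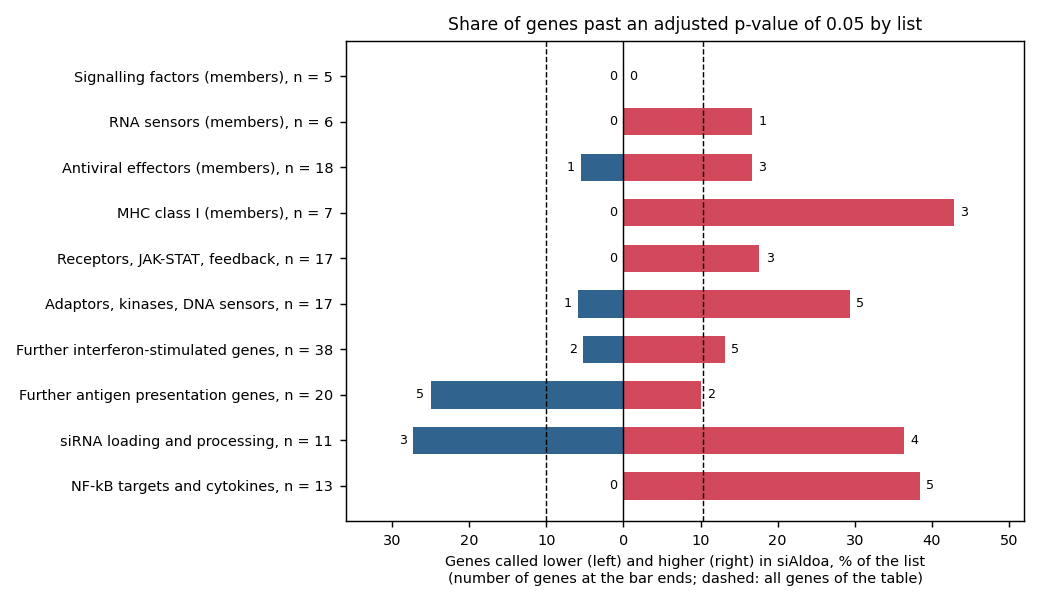
Share of each list called higher (red, right) or lower (blue, left) in siAldoa by limma, in percent of the genes with a row, with the number of genes at the end of each bar. Dashed lines mark the shares of all genes, 10.4% higher and 10.0% lower. MHC class I genes of the list and NF-kB targets reach farthest to the right, while further antigen presentation genes and genes of siRNA loading lie past both or the left line.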

How the data were processed

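The deposited values are CPM of an effective library size. The authors aligned reads to mm10 with Bowtie2 (version 2.2.7 in the submitters' processing notes), drew equal numbers of reads at random for each sample and made counts per gene. Their stated minimum of 12 reads over all samples does not hold in the table, where 1834 genes have fewer. Annotation release, strand and multiply mapped reads are not given in the sources used here. Bowtie2 does not split reads over introns. Spike-in RNA was added before extraction in replicate 1 and after it in replicates 2 and 3, alike in both groups. A second table holds the authors' fold changes, p-values and adjusted p-values and was not used.

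Reads were recovered by dividing CPM by the value of 1 read (100% of values whole within 0.01 reads). No interval was computed from the reads, and molecular identifiers were not used. The groups of 3 libraries, as the labels give them, were compared with limma (version 3.58.1, R 4.3.3), two-sided on log2(CPM + 1) with the trend option and Benjamini-Hochberg adjusted p-values, so fold changes of genes with few reads are understated. edgeR (4.0.16) and DESeq2 (1.42.0) on recovered reads, another pseudocount, a low-level filter, other scalings, a replicate block and left-out libraries were alternatives. Scripts were tested on simulated data. Exonic positions and lengths come from GENCODE (GRCm38), in which 17932 of 18001 identifiers were found, near-identical transcripts from blastn (2.17.0; at least 90% over 200 bases), and promoters from RefSeq. CPM per kilobase used the summed exon length.

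Members, lists and tests were chosen with earlier results of these data known. Library values are given for called genes, for sensors with a mean of at least 1 CPM and for a fixed set of factors. From other lists at most 6 called genes with the largest changes are named, and Canx, Mavs and the genes shown only by range were chosen after their values were seen. Other experiments of the study were not analysed here. A gene covered by the naming rule is not reported here.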

Additional observations from a re-analysis of the deposited data

How the results depend on the processing

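Ifit2 and Tapbp kept their calls in all 20 alternatives. Over 24 genes tested one by one, 476 values under alternatives kept the direction and side of the threshold in 408, lost a call in 56, gained one in 4 and changed sign in 8. The sign changes were those of H2-K1, -0.0021 with quantile normalization and -0.11 to 0.24 with libraries left out, and of Stat2, -0.17 to 0.33 with libraries left out.

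Genes of the list called higher were 7, and 2 without the mean-variance trend, 3 with DESeq2, 4 with a minimum absolute log2 fold change of 0.5 and 2 to 5 with libraries left out. The count called lower was 1, and 0 with that minimum fold and 0 to 1 with libraries left out. RNA sensors called higher were 2 with low genes left out, 0 with quantile normalization, without the trend, with DESeq2 and with the minimum fold, and 0 to 1 with libraries left out. Antiviral effectors called higher were 1 without the trend, with the replicate block or with DESeq2, and 1 to 2 with libraries left out, and those called lower were 0 with the minimum fold and 0 to 1 with libraries left out. MHC class I genes called higher were 1 without the trend and 1 to 3 with libraries left out. Over all genes the counts higher and lower were 824 and 616 without the trend, 1066 and 1117 with DESeq2, 705 and 398 with the minimum fold, and 494 to 1464 and 520 to 1371 with libraries left out, lowest without replicate 3 of both groups. The causes were not tested beyond the fewer samples or the higher minimum that these settings set by construction.

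Libraries that share a replicate number deviated from their group's mean with correlations of 0.040, 0.040 and 0.21 over 8271 genes. For siCtrl replicate 2 with siAldoa replicate 1 it was 0.12, so the numbers were not taken as pairs. Replicate 3 of a group with replicates 1 and 2 of the other gave negative values, from -0.15 to -0.079. Deviations from a group's mean cancel out within the group, so these negative values follow in part from the 0.21 and add little to it. By the 0.21, the split of replicate 3 from replicates 1 and 2 was partly shared by the groups. With the replicate block 5 genes of the list were called higher, Ifitm3 (limma adjusted p = 0.055) and Dtx3l (0.084) being lost. The block called 1611 of all 18001 genes higher and 1559 lower, in place of 1867 and 1809.

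Depth limits what can be said of the 12 genes under 5 CPM, for which a change of a few reads cannot be told from counting error. With 3 libraries per group, Tap2, Ifitm3, Eif2ak2 and Dtx3l each rest on libraries whose removal ended the call, and no library of cells without siRNA was analysed here.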
